A study of Mus musculus with 12 samples.

Results

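The genes described here are 10 markers of muscle precursors, of growing muscle fibres and of fibres without a working nerve: Pax7, Myf5, Myod1, Myog, Myf6, Myh3, Myh8, Chrna1, Chrng and Ncam1. They were taken by name from the 52636 genes in the count table, and each matched 1 Ensembl identifier. RNA was sequenced from back skin of BALB/c mice in 12 libraries, with 3 biological samples in each of 4 groups. Control mice received vehicle, LL37 mice received LL37, the active peptide of the antimicrobial protein cathelicidin, and both kinds were studied with and without RAPA (rapamycin), which inhibits the mTORC1 kinase. They are called control, control + RAPA, LL37 and LL37 + RAPA below, and no group carried a transgene or deletion according to the labels. Per the study's methods, the model used mice of 8 weeks that were shaved and then given 40 microlitres of LL37 or vehicle into the skin 2 times per day for 2 days, and RAPA was given at 4 mg per kg per day into the peritoneum of BALB/c mice. The study also used a RAPA ointment, and the route and timing are not stated for the sequenced mice. The sex of the mice is not given in the labels, and the methods name female mice for the BALB/c experiments.

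Mouse back skin lies on a thin sheet of striated muscle, the panniculus carnosus, which can be taken along with the skin. Skeletal muscle keeps a pool of satellite cells marked by the transcription factor Pax7, and these cells express the myogenic regulatory factors Myf5 and Myod1 when they are activated and Myog when they differentiate. New fibres first make embryonic and neonatal myosin heavy chains, encoded by Myh3 and Myh8, and the adult chains Myh1, Myh2 and Myh4 take over as the fibres mature. The acetylcholine receptor that receives the signal of the motor nerve holds a gamma subunit (Chrng) in the fetus and an epsilon subunit (Chrne) in the adult, and fibres that lose their nerve are known to express Chrna1, Chrng, Myog and Ncam1 again.

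Between 15734559 and 23271784 counts fell on genes in each library, so that 3 counts corresponded to between 0.129 and 0.191 CPM, the count after scaling all libraries to the same size. This floor covers counting error only. The labelled tissue was checked with 4 keratinocyte genes (Krt1, Krt5, Krt10 and Krt14), whose summed level was between 18135 and 36116 CPM in every library. Adult muscle fibres were followed with a list of 26 genes that includes the adult myosins, the skeletal actin Acta1 and the titin gene Ttn. Their summed level was between 44622 and 64188 CPM in control, between 47479 and 82180 CPM in control + RAPA, between 3745 and 8088 CPM in LL37 + RAPA, and 44.1, 51.7 and 1006 CPM in LL37 replicates 1, 2 and 3. LL37 replicate 3 was also the highest LL37 library for each of the 10 genes, and the counts of called genes among the 10 are given with and without it. For Pax7, Myf5 and Myod1 the level rose in steps from replicate 1 to replicate 3 (1.2, 7.72 and 13.3 CPM for Myod1), with replicate 2 nearer to replicate 3. Where muscle RNA is lower, fewer muscle cells, less RNA per cell and less of the muscle sheet taken along with the skin cannot be told apart here.

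Per GENCODE M21 on build GRCm38, all 10 are protein-coding genes, and some of them are neighbours. Myf5 (chromosome 10, 107482908 to 107486134) and Myf6 (107492853 to 107494737) lie next to each other on the minus strand. Myh3 (chromosome 11, 67078300 to 67102291) and Myh8 (67277124 to 67308634) belong to the cluster of myosin heavy chain genes that also holds Myh1, Myh2 and Myh4. Chromosome 1 carries Chrng (87204657 to 87212694) and Myog (134289989 to 134292548). Pax7 lies on chromosome 4 (139737062 to 139833528), Myod1 on chromosome 7 (46376474 to 46379099), Chrna1 on chromosome 2 (73563215 to 73580338) and Ncam1 on chromosome 9 (49502136 to 49798925). No exon of another annotated gene overlaps theirs, except that 417 bases of Ncam1 exons lie opposite the antisense gene Gm11149, which had 5 counts over all libraries.

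To show the sequences next to genes that respond to the myogenic factors, the 250 bases before the RefSeq start of transcription (assembly GRCm38.p6) were read for the members in the promoter table. An entry was found for 7 of the 10 genes, and Myod1, Myf6 and Ncam1 had none. The E-box CANNTG is the motif that Myod1, Myog and related factors bind, and it was searched on both strands, which for this motif gives the same places. The window of Chrna1 held 3 E-boxes and so did that of Chrng, against 12.2% of 32851 promoter windows of the same length that held 3 or more. The variant CAGCTG, which overlaps CANNTG by definition, occurred 2 times in each of these windows, against 1.26% of all windows with 2 or more. The Myog window held 2 E-boxes, those of Myh3 and Myh8 held 1 each, and those of Pax7 and Myf5 held 0, against 66.2% of all windows with 1 or more. These matches describe the letters in the windows and do not show binding. The RefSeq starts differ from the GENCODE starts for some genes. The windows of Chrng and Pax7 lie inside the GENCODE genes, and that of Myog runs past the GENCODE start at 134289989. The 3 windows with more than 1 E-box are printed 5′ to 3′ on the strand of the gene, with E-boxes in capitals: Chrna1 at chr2:73580339-73580588 (minus strand), Chrng at chr1:87205561-87205810 (plus strand), and Myog at chr1:134289754-134290003 (plus strand).
Chrna1: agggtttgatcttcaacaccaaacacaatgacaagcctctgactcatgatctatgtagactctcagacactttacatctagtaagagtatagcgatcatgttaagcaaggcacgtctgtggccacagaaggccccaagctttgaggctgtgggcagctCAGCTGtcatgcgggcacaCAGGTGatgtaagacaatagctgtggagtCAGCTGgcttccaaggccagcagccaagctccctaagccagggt
Chrng: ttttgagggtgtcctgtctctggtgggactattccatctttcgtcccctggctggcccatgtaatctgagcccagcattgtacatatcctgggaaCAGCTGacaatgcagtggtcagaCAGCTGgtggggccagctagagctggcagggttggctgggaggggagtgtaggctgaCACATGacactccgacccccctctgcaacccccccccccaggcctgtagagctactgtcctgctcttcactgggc
Myog: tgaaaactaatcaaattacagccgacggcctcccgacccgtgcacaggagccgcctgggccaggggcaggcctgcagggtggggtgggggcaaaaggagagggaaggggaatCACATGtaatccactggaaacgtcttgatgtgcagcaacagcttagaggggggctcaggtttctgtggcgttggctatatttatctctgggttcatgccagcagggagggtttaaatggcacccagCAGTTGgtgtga

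In control skin all 10 genes were detected in every library, at low levels. Divided by the length of the gene's exons, the mean level was highest for Myog, at 26.2 ± 12.9 CPM per kilobase (SD, n = 3), followed by Myf6 at 17.5 ± 3.72 and Myod1 at 7.85 ± 1.94. Chrna1 stood at 3.89 ± 1.3 and Myh8 at 2.59 ± 0.377 CPM per kilobase. The genes with the lowest levels per kilobase were Ncam1 at 1.37 ± 0.585, Chrng at 0.871 ± 0.853, Myh3 at 0.549 ± 0.486, Pax7 at 0.368 ± 0.0312 and Myf5 at 0.354 ± 0.159. Neighbours in this order were within their SDs of each other, except for the steps from Myf6 to Myod1, from Myod1 to Chrna1 and from Myh8 to Ncam1. Chrng and Myh3 had SDs about as large as their means, because control replicate 3 held 126 Myh3 and 146 Chrng counts, whereas replicates 1 and 2 held 19 and 45 Myh3 counts and 21 and 40 Chrng counts.

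**Figure D1:**
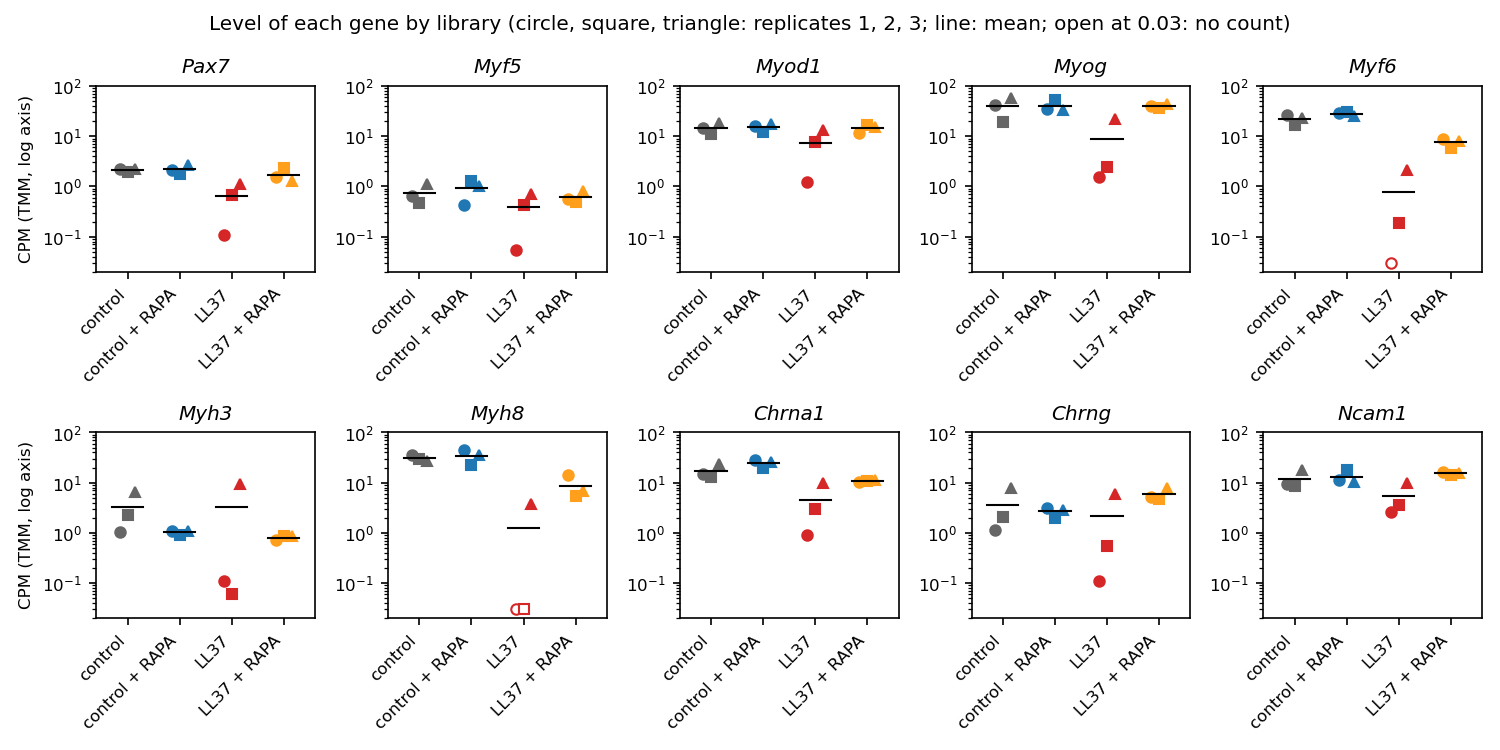
Level of each of the 10 genes in every library, in CPM after TMM normalization on a log axis, with circles, squares and triangles for replicates 1, 2 and 3, a line for the group mean and open symbols for libraries without a count. LL37 replicates 1 and 2 (red circles and squares) lie below the control libraries for each gene, and LL37 replicate 3 (red triangles) lies above both.

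The first comparison asked how these genes stood in LL37 skin, with the whole table fitted in edgeR. A gene is called lower or higher here when its Benjamini-Hochberg adjusted p in the quasi-likelihood test was under 0.05 and its log2 fold change exceeded 1 in size. In LL37 vs control, 5 of the 10 genes were lower in LL37 skin and 0 were higher, against 10.8% of 17993 tested genes that were lower and 8.73% that were higher. Those 5 were Myf6, Myh8, Myog, Chrna1 and Pax7. The median log2 fold change of the 10 genes was -1.43, against -0.0049 over all tested genes and -7.08 over the adult fibre genes, of which 25 of the 25 tested were lower. In 4 of the 10 genes, Pax7, Myf6, Myh8 and Chrna1, every LL37 library lay below every control library, against 25.9% of tested genes (23.8% had every LL37 library above). Without LL37 replicate 3, 9 of the 10 genes were lower (all but Myf5), against 12.8% of 18396 tested genes. The log2 fold changes of the 5 genes named above were then -7.86 for Myf6, -4.28 for Myog, -3.13 for Chrna1 and -2.46 for Pax7. Myh8 stood at -12.21, a size that is not measured, since the LL37 libraries left held 0 counts of it. Without control replicate 3, or without LL37 replicate 2, the count was 3 (Myf6, Myh8 and Pax7), against 1893 of 18452 and 1696 of 18370 genes lower.

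Pax7, the marker of satellite cells, had 42, 38 and 43 counts in control replicates 1, 2 and 3, and 2, 11 and 24 counts in LL37 replicates 1, 2 and 3. The groups did not overlap, and the level fell from 2.16 ± 0.183 to 0.638 ± 0.512 CPM (SD, n = 3; log2 fold change -1.72, SE 0.51, edgeR adjusted p = 0.0168). The call of Pax7 was lost with the compared groups alone (-1.74, adjusted p = 0.0619) and in none of the other 19 alternatives. Myf5, which encodes an early myogenic factor, had few reads, with 12, 9 and 21 counts in control and 1, 7 and 15 counts in LL37 libraries. Its groups overlapped, and its log2 fold change of -0.86 (SE 0.64) did not pass the test (edgeR adjusted p = 0.309). For Myod1, the factor that commits cells to the muscle lineage, control libraries held 268, 216 and 347 counts and LL37 libraries held 22, 126 and 282. LL37 replicate 3 lay inside the control range, and the log2 fold change of -0.97 (SE 0.53) did not pass the test (edgeR adjusted p = 0.167). Without LL37 replicate 3, Myod1 passed it with a log2 fold change of -1.70 (edgeR adjusted p = 0.0171, in a range of 0.0171 to 0.348 over 21 alternatives).

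Myog drives the differentiation of myoblasts, and its counts were 758, 373 and 1094 in control and 28, 40 and 464 in LL37 replicates 1, 2 and 3. The groups overlapped, because LL37 replicate 3 held more counts than control replicate 2. Myog fell all the same from 39.2 ± 19.3 to 8.61 ± 11.5 CPM (log2 fold change -2.16, SE 0.73, edgeR adjusted p = 0.0333), a call that was lost without control replicate 1 or 3, without LL37 replicate 1 or 2 and with the compared groups alone (adjusted p = 0.124). Myf6, also called Mrf4, is the myogenic factor of mature fibres. It had 488, 332 and 433 counts in control replicates and 0, 3 and 46 counts in LL37 replicates 1, 2 and 3. That is a fall from 22 ± 4.69 to 0.784 ± 1.2 CPM (log2 fold change -4.70, SE 0.67, edgeR adjusted p = 0.000254), and the call held under each of the 20 alternatives that could be fitted for it.

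Of the myosin genes, Myh8, which encodes the neonatal heavy chain, had 657, 571 and 509 counts in control and 0, 0 and 81 counts in LL37 libraries. It fell from 30.5 ± 4.43 to 1.27 ± 2.2 CPM (log2 fold change -4.47, SE 0.88, edgeR adjusted p = 0.00183). Up to 12.1% of the 50-base stretches of Myh8 transcripts, and 3.38% of the 100-base stretches, also occur in other genes. The genes sharing most were Myh1, Myh2 and Myh4 for the shorter stretches and Myh1, Myh2 and Myh13 for the longer ones, and Myh1, Myh2 and Myh4 held up to 252988 counts in a library. How much of the Myh8 count came from such reads was not tested. Myh3, which encodes the embryonic heavy chain, had 19, 45 and 126 counts in control and 2, 1 and 203 counts in LL37 replicates 1, 2 and 3. Here LL37 replicate 3 held the highest Myh3 count of all 12 libraries and LL37 replicates 1 and 2 the lowest. The log2 fold change of -0.0040 (SE 1.11, edgeR adjusted p = 0.998) became -5.14 without LL37 replicate 3 (adjusted p = 0.000796) and 0.99 without control replicate 3, so the 3 LL37 libraries did not give 1 direction for Myh3.

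Chrna1 encodes the alpha subunit that binds acetylcholine and is shared by the fetal and the adult receptor. Its counts were 274, 250 and 447 in control and 17, 48 and 212 in LL37 libraries, and the groups did not overlap. It fell from 17 ± 5.72 to 4.62 ± 4.76 CPM (log2 fold change -1.86, SE 0.56, edgeR adjusted p = 0.0187), with the call lost without control replicate 3 (adjusted p = 0.0712), without LL37 replicate 2 (adjusted p = 0.0694) and with the compared groups alone (adjusted p = 0.0888). Chrng, the fetal gamma subunit, had 21, 40 and 146 counts in control and 2, 9 and 124 counts in LL37 libraries. In both groups replicate 3 was far above the others, the groups overlapped, and the log2 fold change was -0.70 (SE 0.93, edgeR adjusted p = 0.576). Without LL37 replicate 3 it was -3.45 (edgeR adjusted p = 0.00806, in a range of 0.00806 to 0.91 over 20 alternatives), and without control replicate 3 it was 0.48.

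Ncam1 encodes a cell adhesion molecule of nerve, of Schwann cells, and of developing or denervated fibres. Control libraries held 177, 164 and 336 Ncam1 counts and LL37 libraries held 49, 59 and 207, so that LL37 replicate 3 lay inside the control range. The log2 fold change of -1.14 (SE 0.43) narrowly missed the test (edgeR adjusted p = 0.053). DESeq2 called it lower (adjusted p = 0.0194), as did edgeR without LL37 replicate 3 (log2 fold change -1.89, adjusted p = 0.00108). Of 11 Schwann cell and nerve genes, 5 were lower and 1 was higher in LL37 than in control, against the 10.8% and 8.73% of all tested genes, with a summed level of 530 to 640 CPM in control and 443 to 551 CPM in LL37 libraries. The part of these cells in the Ncam1 level was not tested.

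**Figure D2:**
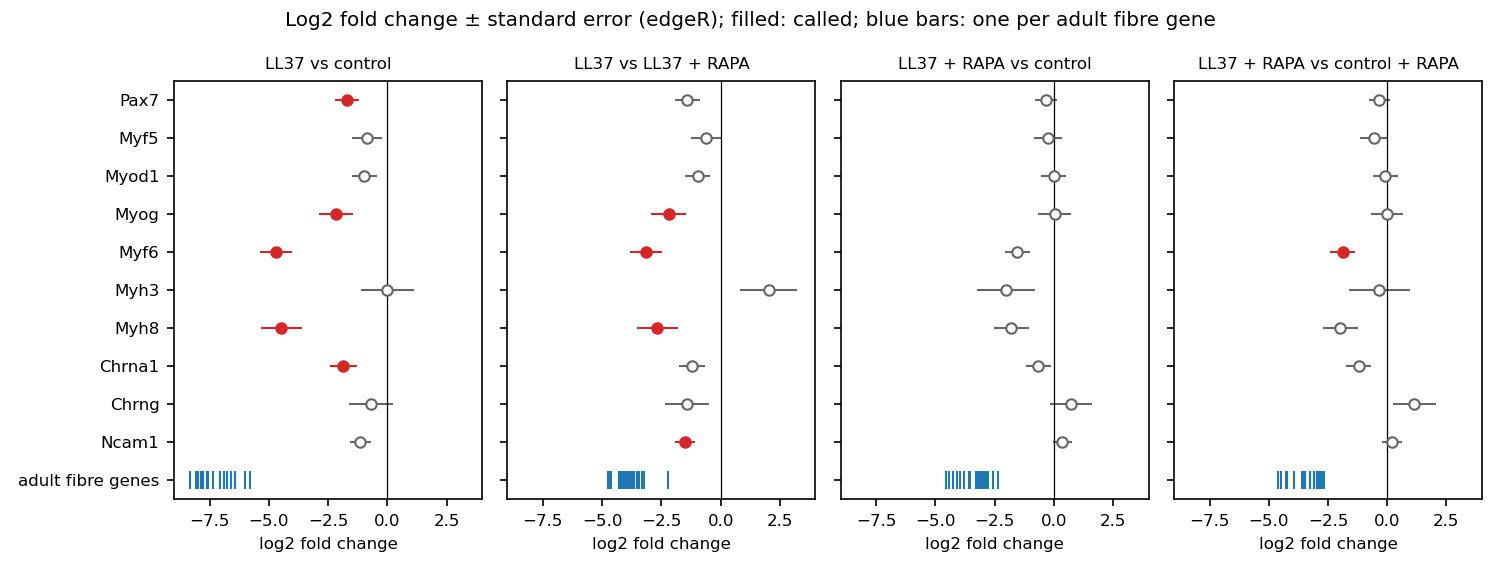
Log2 fold change with its standard error from edgeR for each of the 10 genes in 4 comparisons, with called genes filled in red and 1 blue bar for each adult fibre gene. In LL37 vs control, with all libraries in the fit, the 10 genes lie between -4.70 and -0.0040, to the right of every adult fibre gene (-8.33 to -5.79). Without LL37 replicate 3, which is not drawn, Myf6 and Myh8 stood at -7.86 and -12.21.

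The next comparison asked how the genes stood in LL37 mice with and without RAPA. In LL37 vs LL37 + RAPA, 4 genes were lower in LL37 skin and 0 were higher, against 5.8% of all tested genes that were lower and 4.33% that were higher. They were Myf6, Myh8, Myog and Ncam1. With a fit of these 2 groups alone the count was 0, where 649 of 17234 genes were lower and 588 higher. Without LL37 replicate 3 it was 9 (all but Myf5), against 8.88% of 18396 genes. Leaving out 1 library of control or control + RAPA gave a count of 2 (Myf6 and Ncam1), and leaving out LL37 replicate 1 or 2 or any LL37 + RAPA library gave 1 (Myf6). Of 18370 to 18504 tested genes, 985 to 1021 were lower in the former fits and 657 to 949 in the latter. Both this comparison and LL37 vs control use the same LL37 libraries.

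Myf6 had 189, 140 and 178 counts in LL37 + RAPA replicates, each above the 0, 3 and 46 counts of LL37 (log2 fold change -3.16, SE 0.67, edgeR adjusted p = 0.0075). Myog counts were 841, 872 and 985 in LL37 + RAPA, and its level of 40 ± 4.35 CPM lay above that of each LL37 library (log2 fold change -2.19, SE 0.73, edgeR adjusted p = 0.0493). Myh8 counts were 296, 132 and 153, again without overlap (log2 fold change -2.67, SE 0.87, edgeR adjusted p = 0.0437). The calls of Myog and Myh8 were close to the threshold and were lost in every fit that left out 1 library other than LL37 replicate 3. Ncam1 had 338, 343 and 350 counts in LL37 + RAPA, the tightest group of this gene, and a log2 fold change of -1.5 (SE 0.43, edgeR adjusted p = 0.0281).

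Pax7 and Chrna1 also did not overlap between the LL37 groups, with 32, 58 and 28 Pax7 counts and 214, 269 and 248 Chrna1 counts in LL37 + RAPA. Neither passed the test in edgeR (log2 fold changes -1.40 and -1.20, adjusted p = 0.0636 and 0.135). In all, the LL37 libraries of 6 of the 10 genes lay below those of LL37 + RAPA, against 20.7% of tested genes (17.6% had all LL37 libraries above). Myod1, with 249, 401 and 338 counts in LL37 + RAPA, Myf5, with 12, 12 and 18, and Chrng, with 107, 118 and 178, overlapped with LL37 through LL37 replicate 3 and had log2 fold changes of -0.96, -0.62 and -1.42. Myh3 held 15, 21 and 19 counts in LL37 + RAPA, between LL37 replicates 1 and 2 on the one side and replicate 3 on the other (log2 fold change 2.02, SE 1.21, edgeR adjusted p = 0.242), and the sign turned without LL37 replicate 3 (-3.14, adjusted p = 0.0327).

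LL37 + RAPA skin was then set against both groups that received no LL37. Against control, 0 of the 10 genes passed the test in edgeR, where 4.35% of all genes were lower and 2.15% higher. At an unadjusted p under 0.05 the count was 2 of the 10, against 4930 of 17993 tested genes. DESeq2 also called 0, where 829 genes were lower and 475 higher. Without LL37 replicate 3, which enters this comparison only through the shared filter, normalization and estimate of the spread, the count was 3 (Myf6, Myh3 and Myh8), against 4.65% of genes, and without LL37 replicate 1 it was 1 (Myf6), against 815 of 18403 genes lower. A fit of these groups alone called 2 (Myf6 and Myh8), against 834 lower and 430 higher of 17254 genes. Against control + RAPA, 1 gene, Myf6, was lower and 0 were higher, against 4.32% and 4.07% of genes. The count was 3 without LL37 replicate 1 or 3 (Myf6, Myh8 and Chrna1), against 812 of 18403 genes lower without replicate 1 and 4.53% without replicate 3. It was 2 without LL37 replicate 2, against 781 of 18370 genes lower. Without control replicate 3 or any library of either compared group it was 0, where 625 to 742 of 18403 to 18504 genes were lower. With the compared groups alone it was 4, with Myf6, Myh8 and Chrna1 lower and Chrng higher, against 779 lower and 829 higher of 17180 genes. In CPM, libraries did not overlap and lay lower in LL37 + RAPA for 4 genes in each comparison, namely Myf6, Myh8, Chrna1 and Myh3, against 19.5% of tested genes in the first and 21.8% in the second, and lay higher for 0 genes and 1 gene, against 16.9% and 19.5%. For Myh3 this split was narrow and depended on the scaling. Its raw counts of 15, 21 and 19 in LL37 + RAPA overlapped with 20, 18 and 19 in control + RAPA and with 19, 45 and 126 in control. Of the adult fibre genes, 18 and 19 of 25 were lower in LL37 + RAPA against control and against control + RAPA, with medians of -3.20 and -3.27.

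Myod1, Myog, Ncam1, Pax7 and Myf5 had LL37 + RAPA libraries that overlapped with both groups without LL37. Myog stood at 39.2 ± 19.3 CPM in control, 40.1 ± 10.1 in control + RAPA and 40 ± 4.35 in LL37 + RAPA, and its log2 fold change against control + RAPA was -0.0047 with an SE of 0.69. Myf6 and Myh8, by contrast, did not overlap with either group without LL37. Myf6 had 523, 611 and 436 counts in control + RAPA against 189, 140 and 178 in LL37 + RAPA (log2 fold change -1.88, SE 0.54, edgeR adjusted p = 0.0305), but DESeq2 did not call it. For Myh8, with 830, 466 and 615 counts in control + RAPA and 296, 132 and 153 in LL37 + RAPA, the log2 fold change of -1.98 (SE 0.74) did not pass the test with all libraries in the fit (edgeR adjusted p = 0.0874), and it did with the compared groups alone (-1.95, adjusted p = 0.00555, in a range of 0.00229 to 0.391 over 20 alternatives).

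Among the receptor subunits, the Chrna1 libraries of LL37 + RAPA, at 10.8 ± 0.551 CPM, lay below every library of control + RAPA, at 24.8 ± 4.42 CPM, but the difference did not pass the test with all libraries in the fit (log2 fold change -1.20, SE 0.53, edgeR adjusted p = 0.148). With the compared groups alone Chrna1 was lower (-1.17, adjusted p = 0.000935, in a range of 0.000935 to 0.316 over 21 alternatives). Chrng was the only one of the 10 genes whose LL37 + RAPA libraries all lay above those of control + RAPA, with 107, 118 and 178 counts against 59, 41 and 50, the split seen for 19.5% of all genes. This difference of 1.15 on the log2 scale (SE 0.90) did not pass the test either (edgeR adjusted p = 0.439), and of the 20 alternatives Chrng passed it only in the fit of these groups alone (1.18, adjusted p = 0.0154, the lowest in a range up to 0.657). The adult epsilon subunit Chrne, from the list of neuromuscular junction genes, had 13, 7 and 6 counts in LL37 + RAPA, 82, 70 and 51 in control + RAPA and 75, 61 and 59 in control. Chrne was lower in LL37 + RAPA than in control + RAPA (log2 fold change -3.20, SE 0.35, edgeR adjusted p = 0.000114) and lower in LL37 than in control (-3.33, SE 0.37, edgeR adjusted p = 4.37e-05).

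The ratio of Chrng to Chrne counts, a measure chosen after the values had been seen, was 8.23, 16.9 and 29.7 in LL37 + RAPA and 0.72, 0.586 and 0.98 in control + RAPA. In control replicates 1, 2 and 3 it was 0.28, 0.656 and 2.47, and in LL37 replicates it was 0.4, 2.25 and 12.4. The ratio was higher in each LL37 + RAPA library than in each library without LL37, by 4.34 on the log2 scale against control + RAPA (exact permutation test, two-sided, p = 0.1, which is the minimum for 3 against 3 libraries). The LL37 and control libraries overlapped (difference 1.54, exact permutation p = 0.5), and the Chrne counts of LL37 were 5, 4 and 10. A ratio of Myog to Myf6 counts, chosen in the same way, was 4.45, 6.23 and 5.53 in LL37 + RAPA, 1.22, 1.71 and 1.35 in control + RAPA and 1.55, 1.12 and 2.53 in control. It was 13.3 and 10.1 in LL37 replicates 2 and 3 and is not defined in replicate 1, where Myf6 had 0 counts. The difference between LL37 + RAPA and control + RAPA was 1.92 on the log2 scale (exact permutation p = 0.1).

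RAPA alone left all 10 genes without a call. In control + RAPA vs control, 0 of the 10 genes passed the test in edgeR and 0 had an unadjusted p under 0.05, against 1556 of 17993 tested genes with such a p. DESeq2 called 0 of the 10, where 50 of all genes were lower and 2 higher. The percentage of all tested genes called higher or lower in edgeR was 0 as well. Log2 fold changes ran from -1.70 for Myh3 (SE 1.20) to 0.54 for Chrna1 (SE 0.52), and the libraries of the groups overlapped for every gene, where 8.25% of tested genes had all control + RAPA libraries above and 7.42% below those of control. Myh3 held 20, 18 and 19 counts in control + RAPA and 19, 45 and 126 in control replicates 1, 2 and 3.

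Whether the difference between LL37 and control mice changed with RAPA was tested by the interaction of LL37 and RAPA. None of the 10 genes passed it in edgeR or in DESeq2, where 1.73% of all genes were called with a negative interaction and 0.65% with a positive one in edgeR. In DESeq2, 729 of 17993 genes were called negative and 279 positive. Unadjusted, 3 of the 10 genes had a p under 0.05 in edgeR, against 4049 of the 17993 tested genes. Myf6 stood at an interaction of -2.82 (edgeR adjusted p = 0.0851) and Myh8 at -2.50 (SE 1.12, adjusted p = 0.212). Without LL37 replicate 3 the count was 8 (all but Myf5 and Myod1), against 6.91% of genes with a negative interaction. The effect of RAPA in LL37 mice is thus not shown to differ from that in control mice with all libraries in the fit.

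To relate the 10 genes to the amount of fibre RNA in each library, their counts were divided by the summed counts of the 26 adult fibre genes and multiplied by 100000. The fibre sum itself was 1190479, 870420 and 1065414 counts in control and 810, 843 and 21351 counts in LL37, so a gene with an even level stands far higher on this scale in LL37. Of the 17993 tested genes, 99.4% had every LL37 library above every control library on this scale, and the median difference over all of them was 8.68 on the log2 scale. In LL37 replicates 1 and 2, 174 and 178 of the fibre counts came from the enolase gene Eno3 alone, and how many of the remaining counts came from fibres was not tested. On this scale Myod1 stood at 22.5, 24.8 and 32.6 in control and at 2716, 14947 and 1321 in LL37 replicates 1, 2 and 3, a difference of 7.17 on the log2 scale. Ncam1 differed by 7.39, Myf5 by 7.43, Chrng by 6.91, Pax7 by 6.51, Myh3 by 6.32, Chrna1 by 6.25 and Myog by 5.67, all less than the median of all genes and more than 0, the value of a gene that fell as far as the fibre sum. Each LL37 library lay above each control library for these 8 genes, as for 99.4% of genes, and an exact permutation test of 3 against 3 libraries cannot give less than p = 0.1, so the direction is a description. Myh8 and Myf6 could not be placed in the LL37 libraries without a count, because 0 of 810 fibre counts leaves their ratio open.

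The same scale had firmer counts in mice given RAPA, where the fibre sum was 170462, 91477 and 126719 counts in LL37 + RAPA and 1515693, 961390 and 891192 in control + RAPA. Each of the 10 genes was higher per fibre count in every LL37 + RAPA library than in every control + RAPA library, as were 98.1% of all tested genes (0.306% were lower in every library), with a median difference over all of them of 3.39. Nothing about the 10 genes is read from that direction, which the fall of the fibre sum gives to nearly any gene. Among the 10 the difference was smallest for Myh8 at 1.35 and Myf6 at 1.49 on the log2 scale. It was 2.21 for Chrna1, between 2.94 and 3.41 for Myf5, Pax7, Myh3, Myod1 and Myog, and 3.65 for Ncam1. Chrng had the largest difference, 4.52, with 62.8, 129 and 140 counts per 100000 fibre counts in LL37 + RAPA and 3.89, 4.26 and 5.61 in control + RAPA. Since all 10 were divided by the same sums, these differences are not independent of each other or of the fold changes above.

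**Figure D3:**
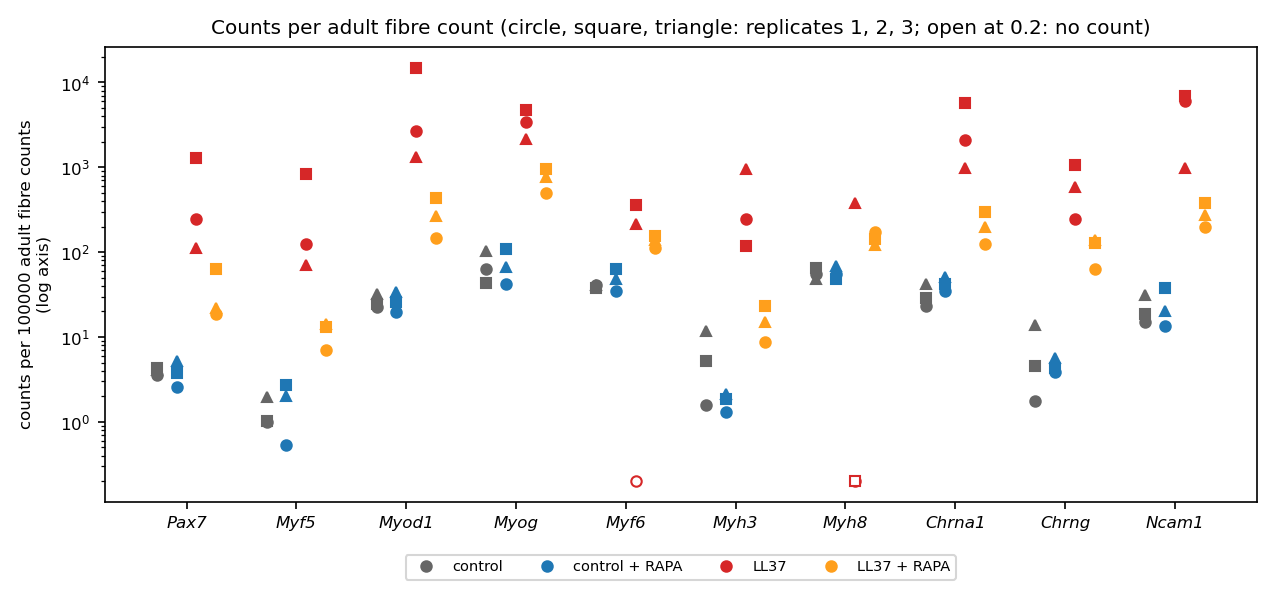
Counts of each gene per 100000 counts on the adult fibre genes in every library, on a log axis, with circles, squares and triangles for replicates 1, 2 and 3 and open symbols for libraries without a count, which coincide for LL37 replicates 1 and 2 of Myh8. LL37 + RAPA libraries lie above control + RAPA libraries for each gene, as for 98.1% of all tested genes, with the widest gap for Chrng (62.8 to 140 against 3.89 to 5.61).

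Wider lists, compiled by hand, covered other genes of the same processes. Their counts stand against 10.8% of all tested genes lower and 8.73% higher in LL37 vs control, and 4.32% lower and 4.07% higher in LL37 + RAPA vs control + RAPA. Of 13 tested satellite cell and muscle regulators other than the 10 genes, 8 were lower and 0 higher in LL37 vs control, with a median log2 fold change of -2.58. The growth inhibitor Mstn, which mature fibres secrete, had 826, 612 and 1387 counts in control and 0, 0 and 7 in LL37 (log2 fold change -8.57, edgeR adjusted p = 2.24e-05), and the homeobox factor Six4 was lower with a log2 fold change of -4.04. In LL37 + RAPA vs control + RAPA, 6 of these regulators were lower, with Mstn at -5.31 and Six4 at -1.66.

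Among 6 genes of myoblast fusion and developmental isoforms, 2 were lower in LL37 vs control, the embryonic light chain gene Myl4 (-2.92, edgeR adjusted p = 0.00581) and Myl6b, and 0 were called in LL37 + RAPA against either group without LL37. The fusion proteins Mymk and Mymx were not called in any of these comparisons. Control replicate 3 held 114 Mymk and 81 Mymx counts against 8 to 15 counts of either gene in replicates 1 and 2, in the same library that was high for Myh3 and Chrng, and LL37 replicate 3 held 62 and 55 against 0 to 5 in LL37 replicates 1 and 2. Of 11 genes of receptor subunits and the neuromuscular junction, 7 were lower and 0 higher in LL37 vs control, among them Rapsn, which anchors the receptor, Chrne and Dok7 (log2 fold changes -3.56, -3.33 and -3.11), and 3 were lower in LL37 + RAPA vs control + RAPA.

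The list of denervation and atrophy genes did not move in 1 direction. Of 10 tested, 3 were lower and 0 higher in LL37 vs control, with a median of 0.049. The 3 were Trim63 and Fbxo32, the ubiquitin ligases that are known to rise in wasting muscle, with log2 fold changes of -6.27 and -3.45, and the stress-responsive Ankrd1 at -2.23 (edgeR adjusted p = 0.000378, 4.73e-05 and 0.0101). Trim63 had 5573, 3161 and 5795 counts in control and 6, 1 and 192 in LL37. In LL37 + RAPA vs control + RAPA, Trim63 and Fbxo32 were lower (log2 fold changes -3.28 and -2.53), whereas Ankrd1 was not called (0.30). In LL37 vs LL37 + RAPA, 7 of the 13 regulators, 2 of the 6 fusion and developmental genes, 5 of the 11 junction genes and 3 of the 10 denervation and atrophy genes were lower in LL37 and 0 were higher, against 5.8% and 4.33% of all genes. In LL37 + RAPA vs control the counts were 6, 0, 2 and 2 lower, and 1 gene of the last list was higher, against 4.35% and 2.15% of all genes. Several genes of this list, such as Cdkn1a and Runx1, are also expressed by other cells of the skin. Among the marker lists, 2 of 7 smooth muscle genes, Synpo2 and Lmod1, were lower and 1 of 4 keratinocyte genes, Krt14, was higher in LL37 vs control, against the same 10.8% and 8.73%. The other smooth muscle genes were not called, among them Myh11 (-0.48), Acta2 (0.021), Cnn1 (0.081) and Actg2 (0.21), and the median of that list was -0.35. None of the 3 tested NK cell genes was called in edgeR in that comparison, and the 5 genes of that list summed to between 3.49 and 10.3 CPM in control and between 7.6 and 8.06 CPM in LL37.

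**Figure D4:**
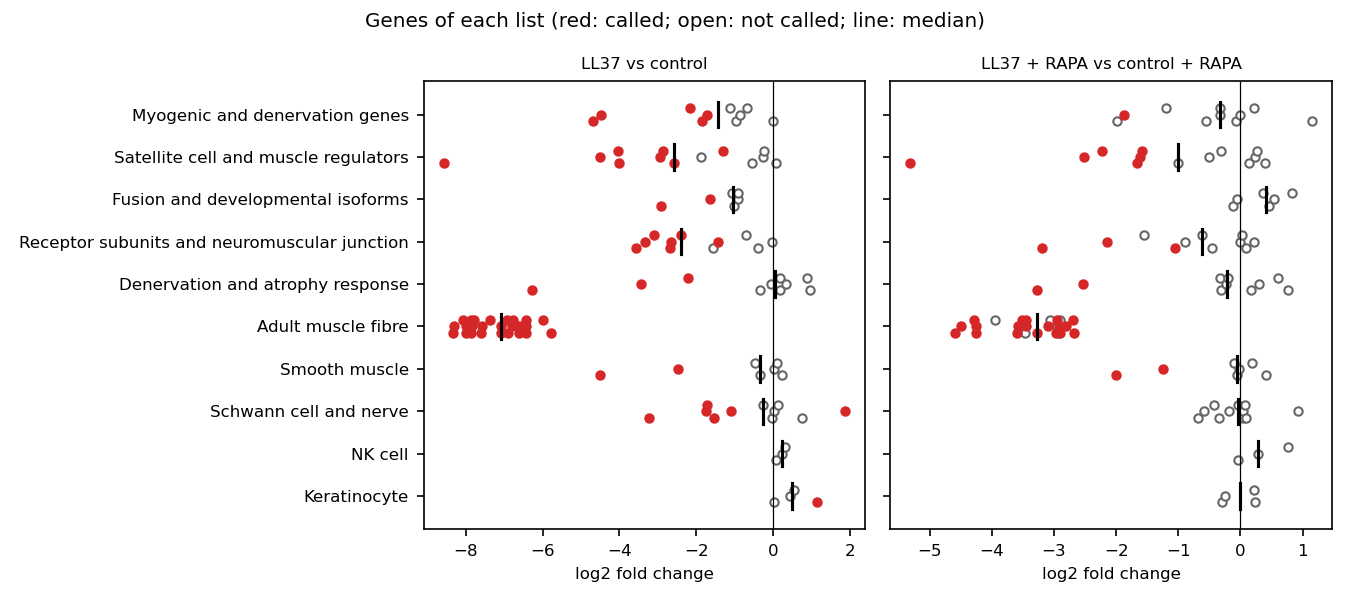
Log2 fold change of every tested gene of each list in LL37 vs control (left) and LL37 + RAPA vs control + RAPA (right), with 1 point per gene, called genes in red and a line at the median of the list. Adult fibre genes have the lowest median in both panels (-7.08 and -3.27), and the 10 myogenic and denervation genes have medians of -1.43 and -0.33. The lowest single gene in both panels is the regulator Mstn (-8.57 and -5.31).

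Finally, the genes whose levels followed each of the 10 most closely over the 12 libraries were listed by Pearson correlation of log2 CPM, as a description of libraries that share the fall in fibre RNA. Myf6 was followed by Tmem182 (r = 0.996) and Cavin4 (r = 0.995), and Myh8 by the calcium channel gene Cacna1s (r = 0.995) and by Ache (r = 0.994). The genes closest to Myog were Chrnd (r = 0.982), the delta subunit of the receptor, and Mapk8ip1 (r = 0.982). Chrna1 was closest to Cldn10 (r = 0.985) and Sln (r = 0.969), and Ncam1 to Kmt2a (r = 0.98). For Pax7 the closest were Gng7 (r = 0.969) and Mzb1 (r = 0.968), for Myf5 Fam229b (r = 0.968), and for Myod1 Mzb1 (r = 0.944). Myh3 and Chrng had the lowest highest values, 0.923 with Map2k6 and 0.906 with Gm26788.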

How the data were processed

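RNA was extracted with Trizol from flash-frozen skin, and libraries were made with the Illumina TruSeq RNA kit from total RNA, with 1 library per biological sample. The authors deposited raw read counts per Ensembl gene, without normalization or pooling of replicates. The submitters' processing notes name HISAT2 2.0.5, StringTie 1.3.3b, featureCounts 1.5.0-p3 and DESeq2 1.16.1 with build mm10, whereas the methods name HTSeq as the counter. The annotation release, the strand setting and the treatment of reads with several matches are not given in the sources used here. Gene names and exon lengths came from GENCODE M21.

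All 12 libraries were fitted together in R 4.3.3 with edgeR 4.0.16 (quasi-likelihood F-test, TMM normalization). The filterByExpr filter, which a gene passes with enough counts in any 3 libraries, kept 17993 genes, all 10 members among them. SEs were derived from the log2 fold change and the F statistic. CPM uses the TMM library sizes, with means and SDs over 3 libraries. Nothing in the labels says that same-numbered samples were paired, and p-values measure the spread between these libraries, which may in part be technical. Of 18 same-numbered pairs of libraries, 4 had correlated deviations (r over 0.1; range -0.188 to 0.263), so the numbers were not treated as pairs.

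The 10 genes, the wider lists and the cell type markers were chosen with earlier results of these data known, so none is independent evidence. Every member is named in each comparison. From each wider list, up to 3 genes per direction with the largest called log2 fold change in LL37 vs control are named, and some genes are not reported here. Other genes named, among them Mymk, Mymx, Eno3, Chrnd, Synpo2, Lmod1 and Krt14, were chosen after their values were seen, as were the ratios of Chrng to Chrne and of Myog to Myf6. Ratios to fibre counts used a pseudocount of 0.5 before the log2 and two-sided exact permutation tests. The fibre gene Tnnc2 stayed below the filter, and 74% of its exon length overlaps Ube2c on the other strand. Scripts were checked on simulated counts. The alternatives were other normalizations, filters and designs, DESeq2 1.42.0, a block for the replicate number, and fits without 1 library.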

Additional observations from a re-analysis of the deposited data

Results flagged for a closer look

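With all libraries in the fit, the interaction of LL37 and RAPA was called for Myl6b, a myosin light chain gene from the list of fusion and developmental isoforms (-1.59 on the log2 scale, SE 0.37, edgeR adjusted p = 0.041). Myl6b had 168, 116 and 208 counts in control, 40, 44 and 72 in LL37, 114, 101 and 75 in control + RAPA and 124, 99 and 112 in LL37 + RAPA. The level was thus lower in LL37 than in control without RAPA (2.75 ± 0.609 against 8.65 ± 2.53 CPM, SD, n = 3), whereas with RAPA it was 4.99 ± 0.916 CPM in LL37 and 5.16 ± 0.944 CPM in control mice. With all libraries in the fit, none of the 10 genes passed this test of the interaction. Of the 12 fits without 1 library, 2 kept the call of Myl6b (edgeR adjusted p between 0.0093 and 0.113), and with the replicate block it was lost (adjusted p = 0.059). Of the genes of the other lists, 6 also passed the test with all libraries, all with a negative interaction. They were the adult fibre genes Mybpc1 (-4.01), Myot (-4.31), Myoz1 (-3.73) and Casq1 (-3.73), 4 of the 25 tested, the regulator Mef2c (-2.39) and Synpo2 (-2.50) from the smooth muscle list, against 1.73% of all tested genes. Without 1 library, these 6 kept the call in 1 to 5 of the 12 fits.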

How the results depend on the processing

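The counts of called genes rested on few libraries. Leaving out 1 library moved the count between 3 and 9 in LL37 vs control, between 1 and 9 in LL37 vs LL37 + RAPA, between 0 and 3 in LL37 + RAPA against control and against control + RAPA, and between 0 and 8 in the interaction, and each highest value was reached without LL37 replicate 3. The counts over all 18370 to 18504 genes moved too. Those lower or negative numbered 1666 to 2352, 657 to 1634, 614 to 855, 625 to 834 and 2 to 1271 in the same order, each highest without LL37 replicate 3 as well. In control + RAPA vs control the count was 0 under every alternative, where the most genes called over the whole table were 50 lower and 2 higher, in DESeq2. With the compared groups alone the count was 2 in LL37 vs control, 0 in LL37 vs LL37 + RAPA, 2 in LL37 + RAPA vs control and 4 in LL37 + RAPA vs control + RAPA. Over all genes, these fits called 1711 lower and 1376 higher of 17167 in the first comparison, and 649 and 588 of 17234 in the second. They called 834 and 430 of 17254 in the third, and 779 and 829 of 17180 in the fourth. A filter of 10 counts in every library, which removes the genes at or near 0 in LL37, gave 2 in LL37 vs control, 2 in LL37 vs LL37 + RAPA and 0 in LL37 + RAPA vs control + RAPA. Of the 14760 genes it kept, 1213 were lower and 1155 higher in LL37 vs control. The numbers were 705 and 514 in LL37 vs LL37 + RAPA, and 423 and 597 in LL37 + RAPA vs control + RAPA. Without a filter on low counts the count was 1 in LL37 + RAPA vs control, 2 in LL37 + RAPA vs control + RAPA and 1 in the interaction. Of the 31949 genes in that fit, 813 were lower and 459 higher against control, and 792 and 826 against control + RAPA. In the interaction 627 were negative and 195 positive. DESeq2 called 0 in LL37 + RAPA vs control + RAPA, where 783 of 17993 genes were lower and 842 higher. With the replicate block the counts were 6 in LL37 vs control, 3 in LL37 vs LL37 + RAPA, 0 in LL37 + RAPA vs control, 1 in LL37 + RAPA vs control + RAPA and 0 in the interaction. In the same order, 1944, 1021, 758, 763 and 153 of 17993 genes were called lower or negative. Those called higher or positive numbered 1536, 682, 323, 681 and 46. The block ended the call of Myh8 in LL37 vs LL37 + RAPA (adjusted p = 0.0569) and gave one for Ncam1 in LL37 vs control (-1.20, adjusted p = 0.039), and in 13 of 36 cases a library correlated best with its own number in another group. The cause of these shifts was not tested.

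Signs turned for some differences near 0, and for Myh3 and Chrng also for larger ones when 1 library was left out. For Myh3 in LL37 vs control the log2 fold change was 0.0079 with DESeq2 size factors, 0.10 with library size only, 0.033 with the fibre genes removed before TMM and 0.0056 without a filter, and it ranged from -5.14 to 0.99 with 1 library left out. For Myod1 in LL37 + RAPA vs control it was 0.11 with library size only, 0.019 with the fibre genes removed, 0.0046 without a filter and 0.0074 with 10 counts in every library. For Myod1 in LL37 + RAPA vs control + RAPA it was 0.11 with library size only. For Myog in LL37 + RAPA vs control + RAPA it was 0.0073 with DESeq2 size factors, 0.18 with library size only, 0.024 with the fibre genes removed, 0.032 without a filter, 0.021 with 10 counts in every library, 0.0083 in DESeq2 and 0.027 with the compared groups alone. The interaction of Myh3 was -0.29 with the replicate block. With 1 library left out, ranges that crossed 0 were -3.45 to 0.48 for Chrng in LL37 vs control, -3.14 to 2.58 for Myh3 in LL37 vs LL37 + RAPA, and -0.50 to 0.16 for Myf5, -0.19 to 0.18 for Myod1 and -0.31 to 0.41 for Myog in LL37 + RAPA vs control. In LL37 + RAPA vs control + RAPA they were -0.21 to 0.051 for Myod1 and -0.092 to 0.22 for Myog, and in the interaction -1.07 to 0.21 for Myf5 and -4.84 to 1.31 for Myh3.

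Myf5 had the fewest counts of the 10 genes in control, between 9 and 21 in a library, and its log2 fold change of -0.86 in LL37 vs control had an SE of 0.64. Which differences could be detected at that depth was not tested.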
